A study of Mus musculus with 6 samples.

Results

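Neurexins, neuroligins and the leucine-rich repeat transmembrane (Lrrtm) proteins meet across the synaptic cleft, and 9 genes that encode them were taken by symbol from a table of 35510 genes: Nrxn2, Nrxn3, Nlgn1, Nlgn2, Nlgn3, Lrrtm1, Lrrtm2, Lrrtm3 and Lrrtm4. The RNA came from the brains of wild-type Swiss (RjOrl:SWISS) mice that received a plasmid by electroporation in utero at stage E15.5. The cells, labelled as cortical neurons, were collected on postnatal day 0. In 3 sponge libraries the plasmid was the miR-17-5p-Sponge plasmid. A sponge is a transcript whose repeated binding sites draw a microRNA away from its natural targets. In 3 control libraries the cells had received a control plasmid. Each library was made from 50 ng of RNA of about 100000 cells pooled from about 10 brains, and the names of the columns carry the word FACS, for cell sorting. The design sets neurons with the sponge beside neurons without it, and the level of the microRNA itself was not analysed here. Nothing in the labels says whether the pools of a group came from separate litters or days, so the p-values measure the spread between these libraries.

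Neurexins sit on the presynaptic membrane and bind partners on the postsynaptic side through their extracellular domains. Neuroligins are postsynaptic receptors for neurexins, and the Lrrtm proteins are a second family of postsynaptic neurexin ligands found mainly at glutamatergic synapses. Together they help to assemble and specify synapses, a process that in the mouse cortex takes place largely after birth.

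All 9 genes were measured in every library, and none passed the test between sponge and control libraries. With the linear models of limma on log2(normalised count + 1), 0 of 9 passed a Benjamini-Hochberg adjusted p of 0.05, against 0% of the 22479 genes tested, and 0 of 9 had an unadjusted p under 0.05, against 2.89% (356 genes higher and 294 lower in sponge libraries; 320 to 1693 in all when 1 library was left out). The 3 sponge values overlapped the 3 control values in all 9 genes, and the groups did not overlap in 11.2% of all genes tested. At that share, 9 genes are too few for 0 to stand out. Nlgn2 and Nrxn2 were by far the most abundant of the 9 per kilobase of exon. Lrrtm2, Lrrtm4 and Nlgn1 had the largest fold changes, 0.43, 0.37 and 0.37 on the log2 scale, and each was lower in 1 control library than in the other 5 libraries.

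That library, control 1, stood apart across the transcriptome. Its correlation with the other 5 lay between 0.942 and 0.954 across genes, against 0.974 to 0.986 for the other pairs, and its summed haemoglobin and Alas2 level was 32171, against 1392 to 4187 elsewhere. In this library microglial markers summed to 4005, against 1689 to 2216 elsewhere, while its neuronal sum of 588229 was the lowest. Its deviation from the other libraries was more negative for longer transcripts over 15597 protein-coding genes (Spearman's rho −0.53, against 0.20 to 0.32 for the others, a description across genes with no test). Each library was set against the mean of the other 5. Control library 1 is thus part of the reference for the others, and their positive values are not independent of its negative one. The values of each library are whole multiples of 1 step, to within 4.07e-09 of a multiple, and the multiples summed to 115445910 to 138254412 per library. These sums are the depth only if a step is 1 read, which was not settled for control libraries 1 and 3, whose steps are close to 1. The labelled neurons were present, with all 10 neuronal markers detected in every library, at a summed level of 588229 to 640681. Astrocyte markers summed to 177554 to 272140 and radial glia and progenitor markers to 140232 to 179869, in pools labelled as neurons. Of the oligodendrocyte lineage, 6 of 6 markers were detected, with sums of 114836 to 129647 in the sponge libraries and 86744 to 107843 in the control libraries. Neuroligins are known to be expressed in glia as well as in neurons, and the part of these cells in the values that follow was not tested. In such bulk samples, fewer cells of a type and less RNA per cell cannot be told apart.

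The sequence of miR-17-5p (mouse chromosome 14, chr14:115043684-115043706 on the plus strand, GRCm38.p6, from RefSeq) is shown because its seed, bases 2 to 8 in capitals, is what the sponge competes for.

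mmu-miR-17-5p: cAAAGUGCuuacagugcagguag

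The longest annotated 3′ UTR of each of the 9 genes was searched on the sense strand for matches to this seed. None held the 7-base match GCACTTT, which 13.1% of the 17546 genes with a 3′ UTR of at least 50 bases held, and none held CACTTTA. The 6-base match CACTTT, which is contained in both and pairs with bases 2 to 7, was in 39.2% of those UTRs and in 4 of the 9 genes. Nlgn1 held 3 of these matches in a UTR of 7423 bases, and Nlgn3, Nrxn3 and Lrrtm4 held 1 each in UTRs of 5701, 2525 and 2743 bases. Among UTRs within 20% of the same length, 94.8% held CACTTT for Nlgn1, 88.5% for Nlgn3, 66.8% for Lrrtm4 and 63.6% for Nrxn3. For the 5 genes with no such match, the share in UTRs of like length was 76.7% for Lrrtm2, 56.7% for Nlgn2, 51.4% for Nrxn2, 47.9% for Lrrtm3 and 12.8% for Lrrtm1. The 7-base match GCACTTT, absent from all 9, was in 2.80% of UTRs of the length of Lrrtm1 and in up to 46.1% of those of the length of Nlgn1. The matches, in capitals with their surroundings from GENCODE M21 on GRCm38, are shown because no longer match to the seed was found in these UTRs.

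Nlgn1, chr3:25433381-25433386, minus strand: tactttttcattCACTTTcaagaattaat
Nlgn1, chr3:25429710-25429715, minus strand: gttatagactatCACTTTttaatgtgagt
Nlgn1, chr3:25428239-25428244, minus strand: ctgtttgacacaCACTTTgtaaaatgaat
Nlgn3, chrX:101324138-101324143, plus strand: acctttagttgcCACTTTtaagatatttt
Nrxn3, chr12:90334673-90334678, plus strand: tttctttctttcCACTTTtttttaaaaat
Lrrtm4, chr6:80023990-80023995, plus strand: taggacatggatCACTTTgcaaaagtttc

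A match is a string of letters and says nothing on binding. The 4 genes with a 6-base match had fold changes of 0.07 to 0.37 on the log2 scale, with a median of 0.30, and the 5 without had −0.09 to 0.43, with a median of 0.05. Without control library 1 the fold changes were 0.02 to 0.21 with a match and −0.16 to 0.09 without a match. With each library's trend on transcript length removed, the fold changes were −0.12 to 0.34 with a match and −0.11 to 0.34 without. The ranges overlapped in each fit. Nlgn1, Nlgn3 and Nrxn3, all with a match, have the longest transcripts of these genes, at 11807, 8541 and 7922 bases. All 4 genes with a match were lowest in control library 1, as were Nrxn2, Nlgn2 and Lrrtm2 among those without.

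Levels were compared between genes as normalised counts per kilobase of union exon length. Nlgn2, the neuroligin of inhibitory synapses, had the highest level, averaging 8592 ± 526 over sponge libraries and 8798 ± 1473 over control libraries (SD, n = 3 each). Nrxn2 followed with 2859 ± 66.0 over sponge libraries and 2648 ± 423 over control libraries, and Nlgn3, a neuroligin found at both excitatory and inhibitory synapses, with 1507 ± 92.3 over sponge libraries and 1435 ± 86.8 over control libraries. These 3 ranges over the 6 libraries were clear of each other and of all lower ones. The next 5 genes overlapped with their neighbours: Lrrtm2 averaged 570 per kilobase over the 6 libraries, Nrxn3 564, Lrrtm1 455, Nlgn1 393 and Lrrtm4 329. Lrrtm3 was lowest at 88.4, with its highest library at 103 and the lowest library of Lrrtm4 at 227. The highest and the lowest mean of the 9 genes differed 98.4-fold.

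**Figure D1:**
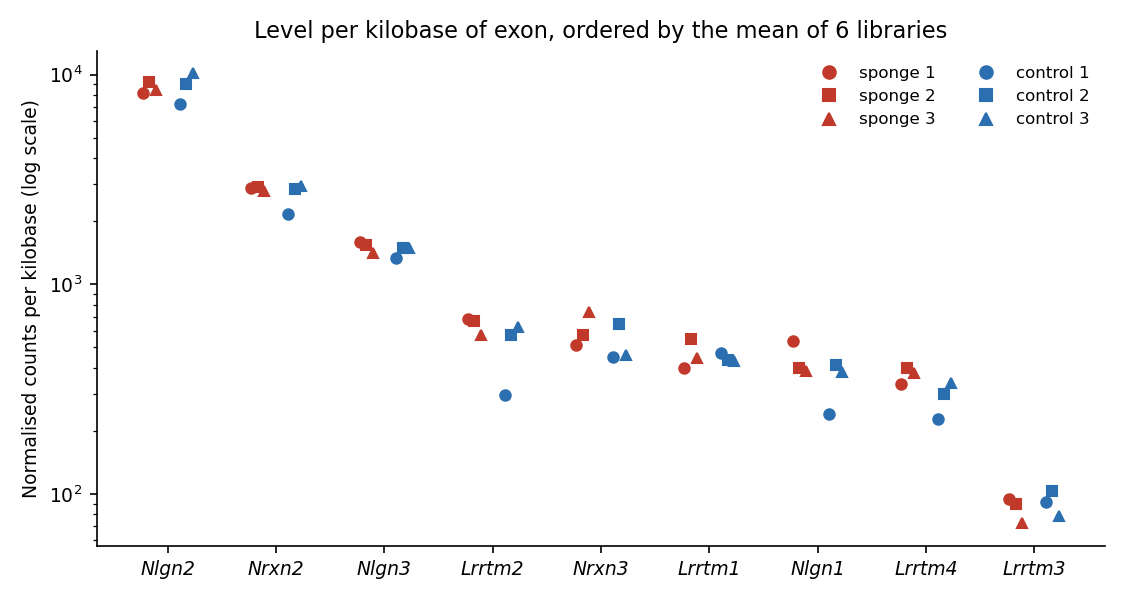
Normalised counts per kilobase of union exon length (log axis) of the 9 genes, ordered by their mean over 6 libraries, with 1 point per library and sponge libraries left of control libraries. Nlgn2, Nrxn2 and Nlgn3 form 3 separate steps, the next 5 genes overlap, and Lrrtm3 lies below the rest.

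Added up per kilobase, the 3 neuroligins made 68.9% of the level of the 9 genes, Nrxn2 and Nrxn3 21.7% and the 4 Lrrtm genes 9.41%. These shares depend on the length used: with the longest annotated transcript of each gene they were 57.4% for the neuroligins, 34.2% for Nrxn2 and Nrxn3 and 8.41% for the Lrrtm genes. The order depends on it in part too: with the longest annotated transcript in place of all exons, Nrxn2 averaged 5705 per kilobase over the 6 libraries, since its union of exons spans 13812 bases and its longest transcript 6667. Nrxn3 then averaged 897 and moved above Lrrtm2, and Lrrtm4 (456) moved above Nlgn1 (446), while the first 3 places and the last were as before. Neurexin genes produce long alpha and short beta forms from separate promoters, which gene-level counts do not separate.

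Nrxn2 (ENSMUSG00000033768, chr19:6418731-6544169 on GRCm38, as are the positions that follow) was nearly level over 5 of the 6 libraries. It had 39782, 40225 and 38473 normalised counts in sponge libraries 1 to 3, against 29887, 39169 and 40683 in control libraries 1 to 3. Control library 1 was low at 75.3% of the mean of the other 5, and those 5 differed 1.06-fold from lowest to highest. The log2 fold change was 0.12 ± 0.15 (SE; 95% interval −0.21 to 0.46; limma adjusted p = 0.925), and −0.02 without control library 1. The antisense gene Gm14964 shares 207 exon bases with Nrxn2 and had 4454 to 5501 counts. Whether the authors' counting used strand is not given in the sources used here, so reads of such pairs cannot be told apart.

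Nrxn3 (ENSMUSG00000066392, chr12:88722876-90334935) varied more, and in both groups. It had 6439, 7209 and 9321 normalised counts in sponge libraries 1 to 3, against 5676, 8177 and 5821 in control libraries 1 to 3. Sponge library 3 and control library 2 were the highest of their groups and control library 1 the lowest of all, so the groups overlapped. On the log2 scale, sponge over control was 0.23 ± 0.19 (SE; 95% interval −0.23 to 0.68; limma adjusted p = 0.925). Leaving out control library 1 gave 0.13, and leaving out sponge library 3 gave 0.08. Markers of interneurons summed to 41534, 56692 and 80079 in sponge libraries 1 to 3, against 75953, 77968 and 54149 in control libraries 1 to 3. Of the 9 markers, 7 were highest among sponge libraries in sponge library 3, as Nrxn3 was. Among control libraries 7 of 9 were highest in control library 1, where Nrxn3 was lowest, and 2 of 9 in control library 2. Their part in the Nrxn3 values was not tested.

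Of the neuroligins, Nlgn1 is the one of excitatory synapses (ENSMUSG00000063887, chr3:25426215-26332460). It had 7213, 5327 and 5173 normalised counts in sponge libraries 1 to 3, against 3213, 5556 and 5145 in control libraries 1 to 3. Sponge library 1 was high, 1 control library was low, and the remaining 4 libraries lay between 5145 and 5556. The fitted log2 difference was 0.37 ± 0.23 (SE; 95% interval −0.17 to 0.91; limma adjusted p = 0.925), and 0.13 ± 0.14 without control library 1. The antisense gene A830092H15Rik shares 1229 exon bases with it and was also highest in sponge library 1, at 298 counts, and lowest in control library 1, at 70.0.

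Nlgn2 (ENSMUSG00000051790, chr11:69823122-69837784) had almost the same mean in both groups. It had 47290, 53126 and 48706 normalised counts in sponge libraries 1 to 3, against 41804, 52187 and 58702 in control libraries 1 to 3. The control libraries held both the lowest and the highest value, and the sponge values lay within their range. The log2 fold change was −0.02 ± 0.15 (SE; 95% interval −0.37 to 0.33; limma adjusted p = 0.982). Without control library 1 it was −0.16 ± 0.09 (SE; 95% interval −0.35 to 0.04), not past the threshold.

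Nlgn3 (ENSMUSG00000031302, chrX:101299168-101325963) had the narrowest interval of the 9 genes. It had 14697, 14198 and 13030 normalised counts in sponge libraries 1 to 3, against 12376, 13755 and 13784 in control libraries 1 to 3. All 6 libraries lay within 1.19-fold, with 1 sponge library below 2 control libraries. On the log2 scale, sponge over control was 0.07 ± 0.11 (SE; 95% interval −0.19 to 0.33; limma adjusted p = 0.930). The processed transcript Gm21986 shares 3823 exon bases with Nlgn3 on the same strand, so the split of reads between them depends on the authors' counting. Gm21986 had 10558, 10028 and 8961 counts in the sponge libraries, against 5402, 9181 and 9894 in the control libraries, so control library 1 stood lower there than in Nlgn3 itself.

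**Figure D2:**
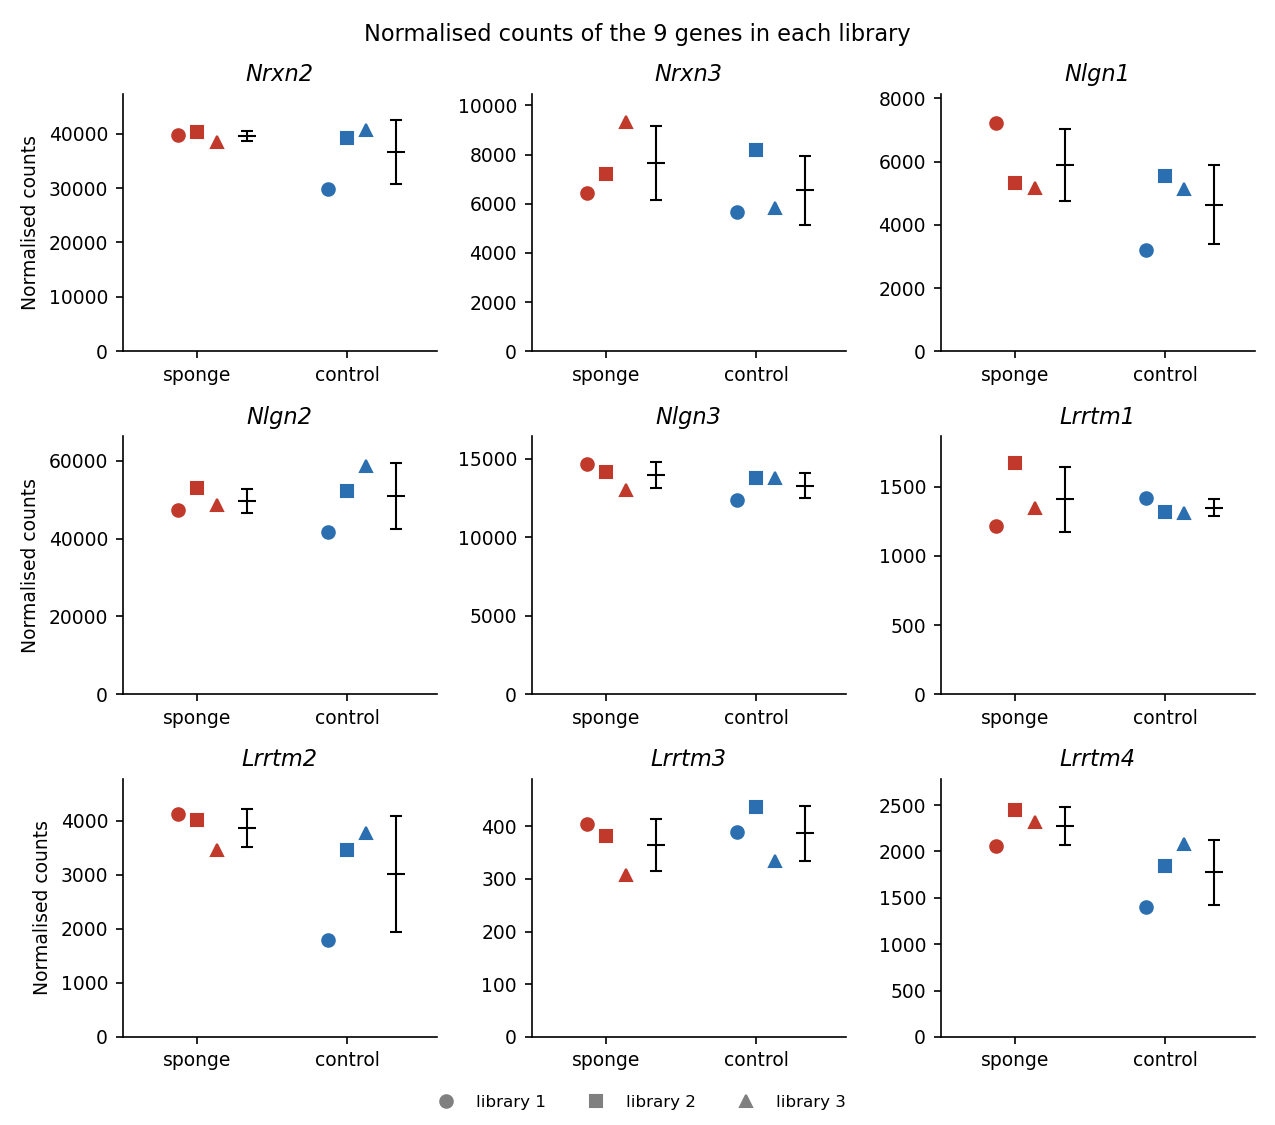
Normalised counts (linear axes from 0) of each of the 9 genes in sponge libraries (left, red) and control libraries (right, blue), with symbols for library 1, 2 and 3 of each group and the mean ± SD (n = 3) in black. Control library 1 (circle) is the lowest of the 6 in 7 genes, and the groups overlap in all 9.

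Lrrtm1 (ENSMUSG00000060780, chr6:77242689-77257791), which can induce presynaptic terminals, lies inside the span of the alpha-catenin gene Ctnna2, on the opposite strand and with no shared exon base. It had 1213, 1671 and 1345 normalised counts in sponge libraries 1 to 3, against 1418, 1316 and 1308 in control libraries 1 to 3. The lowest and the highest value were both in sponge libraries. The fitted log2 difference was 0.05 ± 0.16 (SE; 95% interval −0.33 to 0.44; limma adjusted p = 0.961), and −0.08 without sponge library 2.

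Lrrtm2 (ENSMUSG00000071862, chr18:35209003-35215024), which binds neurexins and helps to hold AMPA receptors at synapses, had the largest fold change and the widest interval. It had 4117, 4005 and 3458 normalised counts in sponge libraries 1 to 3, against 1784, 3459 and 3774 in control libraries 1 to 3. Control library 1 was at 47.4% of the mean of the other 5, while those 5 lay within 1.19-fold of each other and sponge library 3 was level with control library 2. The log2 fold change was 0.43 ± 0.27 (SE; 95% interval −0.21 to 1.07; limma adjusted p = 0.925), and 0.09 ± 0.11 without control library 1. It lies inside Ctnna1 on the opposite strand and shares 95 exon bases with it.

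Lrrtm3 (ENSMUSG00000042846, chr10:63928472-64090277), a postsynaptic protein of excitatory synapses whose gene lies inside Ctnna3 on the opposite strand, was the least abundant of the 9. It had 404, 381 and 308 normalised counts in sponge libraries 1 to 3, against 389, 437 and 334 in control libraries 1 to 3. The 2 groups covered nearly the same range. On the log2 scale, sponge over control was −0.09 ± 0.22 (SE; 95% interval −0.59 to 0.42; limma adjusted p = 0.952).

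Lrrtm4 (ENSMUSG00000052581, chr6:80018877-80810143), which binds neurexins and heparan sulphate proteoglycans, had the smallest unadjusted p of the 9, 0.0719. It had 2055, 2447 and 2319 normalised counts in sponge libraries 1 to 3, against 1396, 1846 and 2079 in control libraries 1 to 3. Sponge library 1 was just below control library 3, and the other 2 sponge libraries were above all control libraries. The fitted log2 difference was 0.37 ± 0.18 (SE; 95% interval −0.04 to 0.79; limma adjusted p = 0.925), and 0.21 ± 0.12 without control library 1 (adjusted p = 0.686). The antisense gene Gm4409 shares 1543 exon bases with Lrrtm4 and had 1093 to 1360 counts in the sponge and 402 to 1172 in the control libraries.

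**Figure D3:**
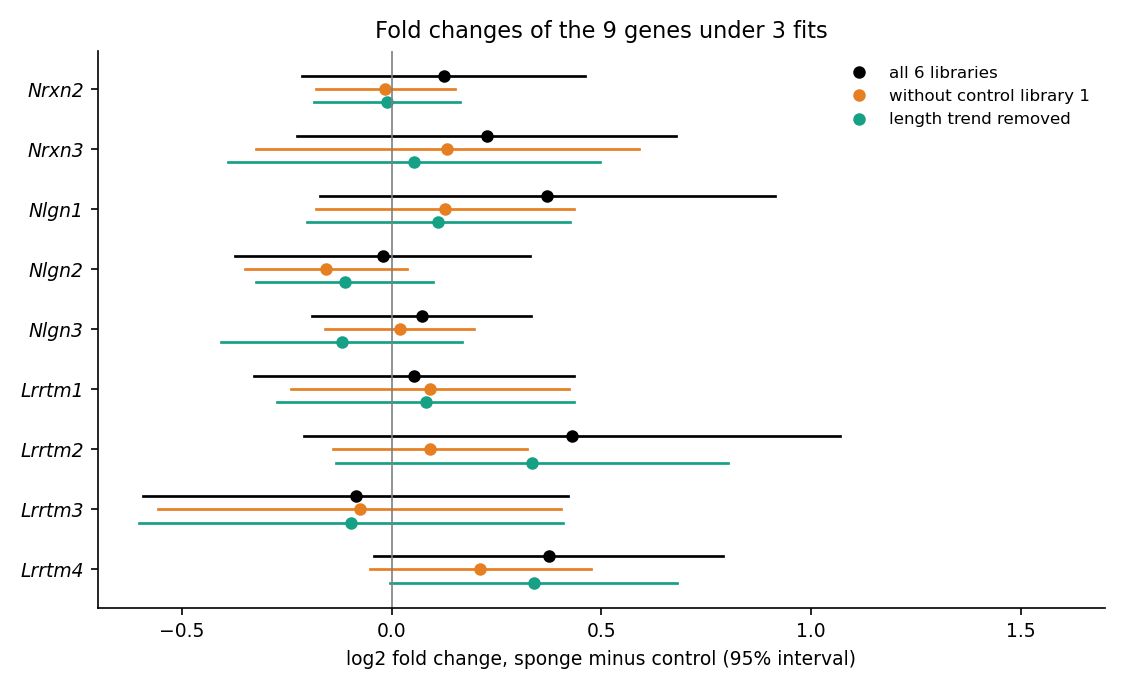
Log2 fold change, sponge minus control, of the 9 genes with its 95% interval from limma, over all 6 libraries (black), without control library 1 (orange) and with each library's trend on transcript length removed (green). Every interval drawn crosses 0, and without control library 1 that of Lrrtm2 spans −0.14 to 0.32, against −0.21 to 1.07 over all 6 libraries.

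Of the 9 genes, 7 had a positive fold change over all 6 libraries and 6 without control library 1, with medians of 0.12 and 0.09, beside 0.006 and 0.010 over all genes tested. Over all 6 libraries, 11439 of the genes tested had a positive fold change and 11040 a negative one. Without control library 1, limma called 2 genes (0.0089% of those tested) and none of the 9, and 0 of 9 had an unadjusted p under 0.05, against 7.53% of all genes. The authors' deposited table lists 8 of the 9 genes and gives 7 a positive log2 fold change, from 0.0649 for Lrrtm1 to 0.3609 for Lrrtm2. Its smallest p-value among them was 0.0844, for Lrrtm4, and 0 of 8 passed its adjusted p, against 0.00925% of the 10812 genes it lists.

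Control library 1 was the lowest of the 6 in 7 of the 9 genes. On the log2 scale it lay 1.07 below the mean of the other 5 in Lrrtm2. The difference was −0.81 in Nlgn1, −0.61 in Lrrtm4, −0.41 in Nrxn2, −0.36 in Nrxn3, −0.31 in Nlgn2 and −0.17 in Nlgn3. In Lrrtm1 and Lrrtm3 the difference was 0.06 and 0.07, and these genes have the shortest transcripts of the 9, with longest forms of 2958 and 3896 bases. Length did not order the remaining 7: Lrrtm2, with the largest gap, has 5673 bases, and Nlgn3, with the smallest, 8541. Nlgn1 has the longest transcript, 11807 bases. With the trend on transcript length removed from each library, the log2 fold change was 0.053 for Nrxn3, 0.11 for Nlgn1, 0.34 for Lrrtm2 and 0.34 for Lrrtm4, and turned to −0.011 for Nrxn2 and −0.12 for Nlgn3. It was −0.11 for Nlgn2, 0.081 for Lrrtm1 and −0.097 for Lrrtm3. With limma's array quality weights, whose estimation stopped short of its convergence tolerance, it was 0.014 for Nrxn2, 0.047 for Nrxn3, 0.048 for Nlgn1, −0.073 for Nlgn2 and 0.0089 for Nlgn3. With the same weights it was 0.13 for Lrrtm1, 0.15 for Lrrtm2, −0.23 for Lrrtm3 and 0.32 for Lrrtm4.

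**Figure D4:**
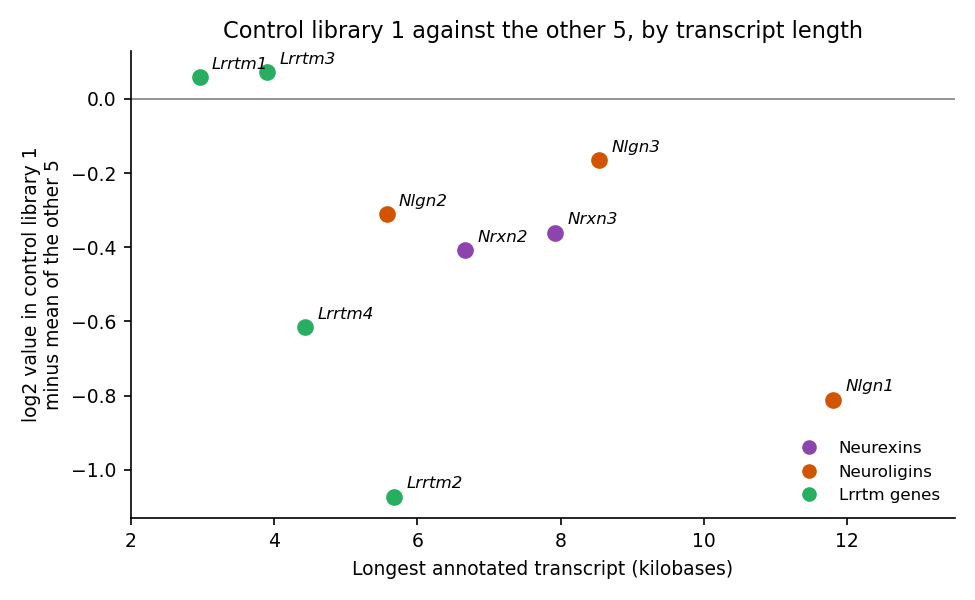
Difference on the log2 scale between control library 1 and the mean of the other 5 libraries (vertical axis) against the longest annotated transcript in kilobases (horizontal axis), 1 point per gene, coloured by family. Lrrtm1 and Lrrtm3, the shortest, are just above 0, and Lrrtm2 lies lowest at −1.07.

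Shares within a family do not depend on how libraries are scaled. Of the level per kilobase of the 3 neuroligins, Nlgn2 made 79.4%, 82.6% and 82.5% in sponge libraries 1 to 3, against 82.1%, 82.6% and 84.4% in control libraries 1 to 3. Nlgn1 made 5.22%, 3.57% and 3.77% in sponge libraries 1 to 3, against 2.72%, 3.79% and 3.19% in control libraries 1 to 3, so sponge library 1 was high and control library 1 low. Nrxn2 made 82.5% ± 3.10 of Nrxn2 and Nrxn3 together over sponge libraries and 83.5% ± 2.62 over control libraries (SD, n = 3 each). Among the Lrrtm genes, Lrrtm2 and Lrrtm1 made 41.1% ± 3.52 and 29.7% ± 2.99 in the sponge libraries, against 36.9% ± 8.26 and 34.4% ± 7.66 in the control libraries. In control library 1 alone the order of these genes was turned, with 43.2% for Lrrtm1 and 27.4% for Lrrtm2. Lrrtm4 made 23.7% ± 1.83 over sponge libraries and 21.7% ± 1.05 over control libraries, while Lrrtm3 made 5.50% ± 0.699 over sponge libraries and 7.02% ± 1.58 over control libraries. Over the 8 shares tested, the exact two-sided permutation p ran from 0.2 to 0.7 and the adjusted p from 0.667 to 0.7, where 3 against 3 libraries cannot give less than 0.1.

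The genes around these families were read from 5 lists with 71 tested members, and none passed the test in either direction, with 4 higher and 2 lower in sponge libraries at an unadjusted p under 0.05, which 2.89% of all genes tested reached. The groups did not overlap in 11 of 71, beside 11.2% of all genes tested. Among the neurexin ligands and partners, 10 of 16 had positive and 6 negative fold changes, with a median of 0.009, and of 0.15 without control library 1. Beside this and the lists that follow, all genes tested had 11439 positive and 11040 negative fold changes. Cbln2, a cerebellin that links presynaptic neurexins to postsynaptic delta receptors, had 192, 195 and 184 normalised counts in the sponge libraries, against 352, 276 and 262 in the control libraries. Its relative Cbln4 had 33.5, 41.7 and 43.3 in the sponge libraries, against 117, 92.5 and 52.6 in the control libraries. All sponge values lay below all control values in both, with log2 fold changes of −0.63 ± 0.23 and −1.06 ± 0.41 (SE), and −0.50 and −0.81 without control library 1. Grid1, a delta receptor for cerebellins, had all sponge values above all control values, with 3178, 3110 and 2862 counts in the sponge libraries, against 2508, 2467 and 2298 in the control libraries. Its log2 fold change was 0.33 ± 0.12 (SE), 0.36 without control library 1, and the limma adjusted p of all 3 was 0.925.

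Of the modulators of neuroligins and Lrrtm proteins, 6 of 9 had positive and 3 negative fold changes. Their median was 0.09, and 0.03 without control library 1. Mdga2 encodes a membrane protein that binds neuroligins and blocks their contact with neurexins. It had 2856, 2698 and 2986 counts in the sponge libraries, against 1076, 2085 and 1967 in the control libraries, with no overlap. The log2 fold change was 0.79 ± 0.25 (SE; limma adjusted p = 0.925) and 0.49 ± 0.10 without control library 1 (SE; limma adjusted p = 0.559). The glypican Gpc6 had 3736, 3409 and 3079 counts in the sponge libraries, against 912, 2603 and 2881 in the control libraries, and its log2 fold change of 0.84 ± 0.40 (SE) was 0.31 without control library 1. Gpc3, another glypican, overlapped between the groups, at 0.28 ± 0.27 (SE), and 0.43 without control library 1.

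The cytoplasmic adaptors that bind the tails of these receptors had a median of 0.12, with 11 of 15 positive and 4 negative, and a median of −0.05 without control library 1. Cask, a scaffold kinase that binds neurexins, had 18357, 19564 and 20000 counts in the sponge libraries, against 14345, 17862 and 17423 in the control libraries. Its log2 fold change was 0.23 ± 0.13 (SE), and 0.13 without control library 1, while the adaptor Apba1 and the scaffold Magi2 had 0.25 ± 0.16 and 0.26 ± 0.20 (SE) and overlapped between groups. Without control library 1, Apba1 had 0.085 and Magi2 0.020. Of 28 other synaptic organisers, 24 had positive and 4 negative fold changes, with a median of 0.20, and 0.08 without control library 1. The teneurin Tenm3 had 9762, 8656 and 8021 counts in the sponge libraries, against 3385, 6185 and 7807 in the control libraries, at 0.68 ± 0.28 (SE) and 0.34 without control library 1. The adhesion proteins Slitrk4 and Ntng1 had 0.43 ± 0.23 and 0.34 ± 0.18 (SE), and 0.35 and 0.25 without control library 1. The RNA-binding proteins Khdrbs1, Khdrbs2 and Khdrbs3, which act on alternative exons of neurexins, had −0.05 ± 0.12, −0.01 ± 0.16 and −0.09 ± 0.13 (SE), and without control library 1 Khdrbs2 and Khdrbs3 had 0.12 and 0.012.

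**Figure D5:**
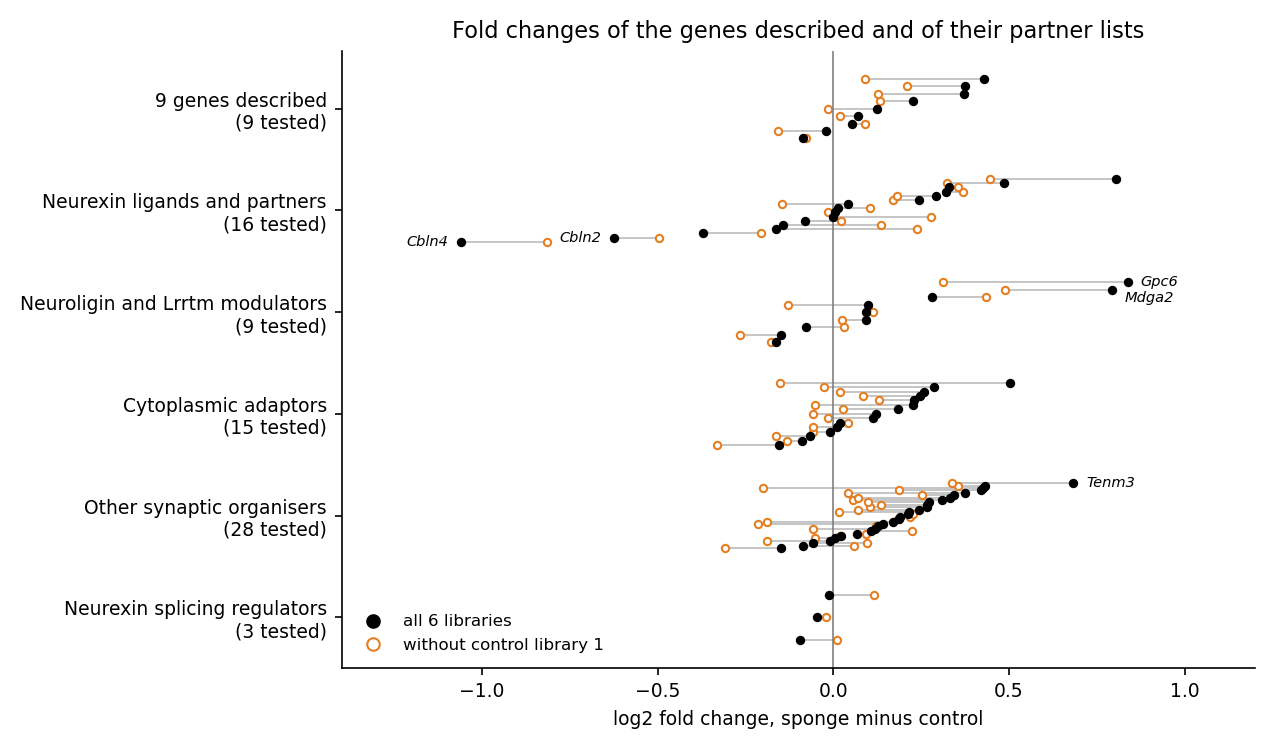
Log2 fold change, sponge minus control, of the 9 genes and of 71 partner genes in 5 lists, 1 point per gene, over all 6 libraries (black) joined to the value without control library 1 (open orange). Partner genes described in the text with a fold change past 0.6 on either side carry their symbol, and most adaptors and other organisers lie further left without that library.

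The genes whose log2 values followed a member most closely over the 6 libraries were sought among 14077 genes with a mean of at least 50. For Nrxn3 they were Rfwd3, Slc25a16 and Rnf103, with Pearson correlations of 0.986, 0.985 and 0.983. For Nlgn1 they were Tmem106b, Prdm16os and Pik3r4, at 0.998, 0.995 and 0.995, and for Lrrtm4 Fam45a, Tmem232 and Mmut, at 0.998, 0.996 and 0.990. With 6 points and this many genes such values describe the libraries, and all 9 genes named, like these 3 members, were lowest in control library 1.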

How the data were processed

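Per the submitters' processing notes, reads were handled with STAR 2.7.6a and DESeq2 1.30.1 on mm10 (GRCm38). Not given in the sources used here are the gene annotation, the read counter and whether it used strand. The deposited table gives the authors' normalised counts, a signal scaled per library, and a second deposited table gives the authors' log2 fold changes and p-values.

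Values were analysed as log2(value + 1). Genes with a mean of at least 10 were tested with limma 3.58.1 in R 4.3.3 (robust empirical Bayes with a trend, Benjamini-Hochberg adjustment). Adding 1 understates the change of low genes, and the steps were tested on simulated data. The simulated noise was independent between genes. It held no deviation of a whole library such as that of control library 1, so it cannot show how the steps handle one. Fits with a replicate block, array weights, other pseudocounts and filters, TMM scaling, the trend on transcript length removed, and each library left out were alternatives. The labels do not say whether same-numbered libraries belong together, so the main fit used no pairing. Deviations of same-numbered libraries correlated at 0.0096, 0.0054 and −0.053, against −0.054 to 0.071 for other pairs. With 3 libraries a group these values cannot exclude a pairing. Shares were compared with exact permutation tests (Python 3.11.15, scipy 1.17.1).

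Gene positions, lengths and UTRs came from GENCODE M21, which held 35389 of the 35510 identifiers. Besides the 9 genes, the text names the 3 partner genes of smallest p in each list and, for the member of smallest p in each family, the 3 most correlated genes, passing over predicted genes. The members and lists were chosen with earlier results of these data known.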

Additional observations from a re-analysis of the deposited data

How the results depend on the processing

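Of the 9 genes and 71 partner genes, 0 were called under every alternative run, while over all genes the 0 calls became 4 with array quality weights (3 higher and 1 lower; control library 1 had a weight of 0.126, the others 0.584 to 2.65) and 0 to 2 when 1 library was left out, with the 2, both higher, found without control library 1. The labels give no pairing for the replicate block. With this block 0 genes were called, with 316 higher and 211 lower at an unadjusted p under 0.05. The limma adjusted p of the 9 genes then lay between 0.971 and 0.993. Removing the length trend turned the log2 fold change of Nrxn2 to −0.011 and of Nlgn3 to −0.12, and array weights turned Khdrbs3 to 0.0076 and Khdrbs2 to 0.12. Leaving out 1 library moved Nrxn2 between −0.016 and 0.21, Nlgn2 between −0.16 and 0.088, Lrrtm1 between −0.076 and 0.15, Lrrtm3 between −0.19 and 0.030, Khdrbs3 between −0.15 and 0.012, and Khdrbs2 between −0.092 and 0.12. The difference in share, sponge minus control, was −1.02 points for Nrxn2 over all 6 libraries and −2.23 to 0.727 with 1 left out, 0.605 and −0.0643 to 1.33 for Nlgn3, and 4.26 and −0.479 to 7.08 for Lrrtm2. The cause was not tested. At an unadjusted p under 0.05, TMM scaling gave 307 genes higher and 331 lower, and leaving out 1 library gave 320 genes, without sponge library 3, to 1693, without control library 1. Without control library 1, Nlgn1 had 0.13 and Lrrtm2 0.09, the lowest of their ranges up to 0.52 and 0.63. The planned count models in edgeR and DESeq2 were not run, because the deposited values are normalised and raw counts were not analysed here. With 3 libraries a group, the 95% intervals of the 9 genes reached 0.26 to 0.64 on the log2 scale either side. The median over all genes tested was 0.56. Estimates smaller than the reach of their own interval were not told apart from 0. The adjusted test asks for more than these intervals. Larger differences, such as 0.79 for Mdga2 and −1.06 for Cbln4, did not pass it (limma adjusted p = 0.925 for both).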
